A study of Homo sapiens with 6 samples.

Results

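The inflammatory chemokine genes examined here were CXCL1, CXCL2, CXCL3, CXCL5, CXCL6, CXCL8, CCL2, CCL5, CCL20 and CX3CL1. They were followed in the established human glioblastoma line U87 on 1-colour Affymetrix arrays of mRNA. Members were the probe sets whose platform annotation names only 1 gene and that gene is one of these 10. All 10 genes had such a probe set, and 21 of the 49293 probe sets on the arrays that were not controls were members. The miR-151a UP group held 3 samples of U87 cells with the microRNA miR-151a overexpressed, and the miR-NC group held 3 samples that overexpressed a control microRNA, so both groups overexpressed a microRNA. How the microRNAs were delivered, which arm of miR-151a was raised, for how long, and whether the line was a clone or a pool is not stated in the labels or files. Whether the samples of each group came from separate cultures is not stated either, so the p-values rest on sample-to-sample spread that could be technical.

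Chemokines are small secreted proteins that steer migrating cells through receptors coupled to G proteins. CXCL1, CXCL2, CXCL3, CXCL5, CXCL6 and CXCL8 belong to the ELR-positive CXC group, which attracts neutrophils through CXCR2 and, for CXCL6 and CXCL8, also CXCR1. CCL2 attracts monocytes through CCR2, CCL5 attracts T cells and monocytes through receptors such as CCR1, CCL20 attracts CCR6-positive lymphocytes and dendritic cells, and CX3CL1 (fractalkine) is a membrane-bound adhesion molecule and, once shed, an attractant for CX3CR1-positive cells such as microglia. Glioma cells are a known source of several of these proteins, and most of the genes are switched on by NF-kB after signals such as IL-1 or TNF.

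The 6 arrays were close to each other, with median intensities from 57.1 to 58.6, and samples correlated more within groups (0.9980 to 0.9984) than between groups (0.9956 to 0.9958). Across all probe sets, 3355 were higher and 3585 lower with miR-151a at a Benjamini-Hochberg adjusted p under 0.05 in limma, which is 6.81% and 7.27%. The higher count became 2227, 2189 and 2171 without miR-151a UP replicate 3, miR-NC replicate 1 and miR-NC replicate 2. The lower count became 2052, 2276, 1893, 1959 and 2001 without miR-151a UP replicates 1 and 3 and miR-NC replicates 1, 2 and 3. VIM and CD44, mesenchymal markers of such lines, were bright in every sample. GFAP, the astrocyte filament gene, had intensities of 60.0 to 62.8 with miR-151a and 62.5 to 63.6 with miR-NC, near the median of the arrays.

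Most of the inflammatory chemokine probe sets were higher with miR-151a. Of 21 member probe sets, 14 rose and 0 fell in limma, where 6.81% and 7.27% of all probe sets did. Read by the brightest probe set of each gene, 7 of 10 genes rose and 0 fell, against 6.75% and 7.29% of 18132 genes. At an unadjusted p under 0.05 in limma the counts were 16 and 0 probe sets, and 8 and 0 genes. The shares are those past the adjusted threshold. For the unadjusted cut no share is given, here or for the lists below, so those counts have no background. The 10 genes were chosen with earlier results of these data known. The genes that rose were CXCL1, CXCL2, CXCL3, CXCL5, CXCL8, CCL5 and CCL20. The median log2 fold change was 0.72 over the member probe sets and -0.01 over all probe sets. For 15 of the 21 the 3 miR-151a values all lay above the 3 miR-NC values and for 0 all lay below, where this held for 15.3% and 18.6% of all probe sets. In bulk RNA of this kind, more cells that express a gene and more RNA per cell cannot be told apart.

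Control probe set ratios that serve as a sign of RNA quality differed between the groups in part. The labels name whole-transcript labelling, so what these ratios say of RNA quality here is not settled. For beta-actin the 3 prime control probe set over the 5 prime one gave log2 ratios of 0.27 to 0.30 with miR-151a and 0.37 to 0.43 with miR-NC, and for GAPDH they averaged 0.05 with miR-151a and 0.04 with miR-NC. For 18S ribosomal RNA they were 0.35 to 0.41 with miR-151a and -0.54 to -0.46 with miR-NC. Their part in the chemokine results was not tested.

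**Figure D1:**
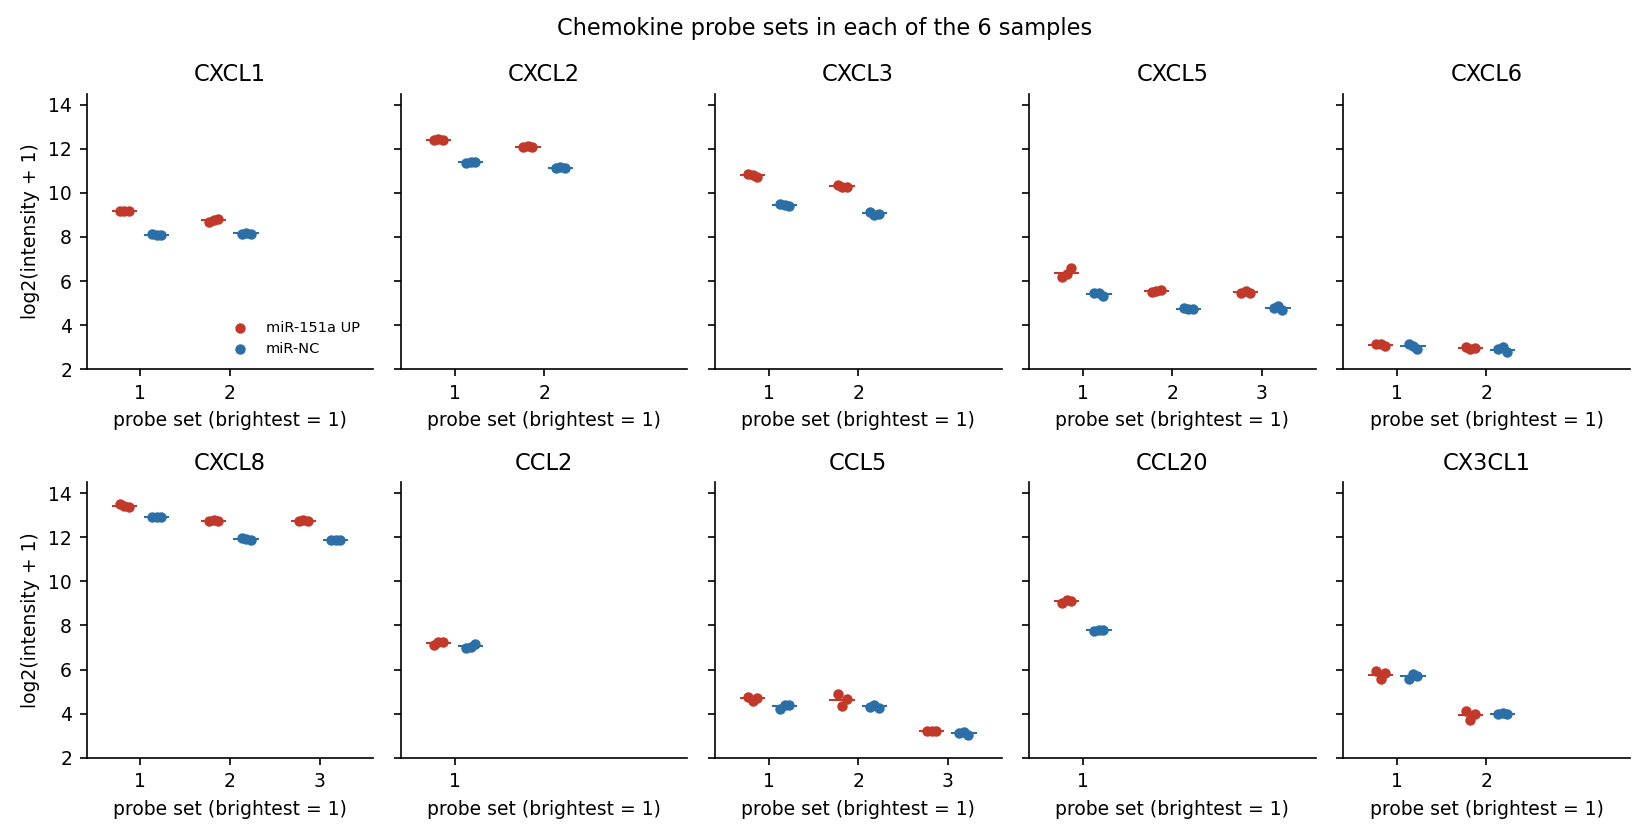
Values of log2(intensity + 1) of each member probe set in each sample, 1 panel per gene, with probe sets numbered from the brightest; points are samples (miR-151a UP left in red, miR-NC right in blue) and lines are group means. The groups stand apart for every probe set of CXCL1, CXCL2, CXCL3, CXCL5, CXCL8 and CCL20 and overlap for CXCL6, CCL2 and CX3CL1.

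CXCL1, CXCL2 and CXCL3, the closely related GRO genes, each rose on both of their probe sets. CXCL3 had the largest log2 fold change of the 10 genes by brightest probe set over all samples, though CCL20 exceeded it with the mean over probe sets (1.31 for CCL20 and 1.28 for CXCL3), without miR-151a UP replicate 1 (1.35 and 1.31) and without miR-NC replicate 3 (1.32 and 1.31). Its brighter probe set (11728477_at) read 1822, 1783 and 1688 with miR-151a and 712, 708 and 683 with miR-NC. The lowest miR-151a value was thus far above the highest miR-NC value, a 2.51-fold rise (log2 fold change 1.33, 95% interval 1.21 to 1.45, adjusted p = 6.2e-06 in limma). The second probe set (11728476_a_at) gave 1328, 1237 and 1228 with miR-151a and 566, 515 and 533 with miR-NC, a 2.35-fold rise.

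CXCL2 was read by bright probe sets in both groups. Its brighter probe set (11744128_x_at) read 5326, 5549 and 5296 with miR-151a and 2588, 2681 and 2700 with miR-NC, a 2.03-fold rise (log2 fold change 1.02, 0.91 to 1.13, adjusted p = 1.7e-05 in limma). The suffix x marks a probe set with probes that may bind related transcripts, and CXCL1, CXCL2 and CXCL3 are near copies of each other. The CXCL2 probe set without that mark (11744127_at) read 4313, 4425 and 4251 with miR-151a and 2230.2, 2287 and 2252 with miR-NC, a 1.92-fold rise. The groups did not overlap on either, and the 2 intervals overlapped (0.91 to 1.13 and 0.83 to 1.05).

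The 2 probe sets of CXCL1 rose by different amounts. The brighter one (11719366_s_at) read 581, 575 and 572 with miR-151a and 280.0, 270.3 and 268 with miR-NC, a 2.11-fold rise (log2 fold change 1.08, 0.97 to 1.19, adjusted p = 1.1e-05 in limma). The other (11754114_a_at) read 413, 432 and 442 with miR-151a and 283, 287 and 282 with miR-NC, a 1.51-fold rise whose interval (0.48 to 0.71) did not overlap the first. With the mean over both, CXCL1 had a log2 fold change of 0.83, so its direction was shared and its size was not. Whether transcripts of its near copies CXCL2 and CXCL3 added to the signal of either probe set was not tested.

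CXCL8, better known as interleukin 8, rose on all 3 of its probe sets, and by less on the brightest one than on the others. That probe set (11718841_s_at) read 11506, 11021 and 10673 with miR-151a and 7729, 7829 and 7752 with miR-NC, a 1.42-fold rise (log2 fold change 0.51, 0.39 to 0.62, adjusted p = 0.00073 in limma). The dimmer ones gave more: 11754026_a_at read 6771, 7109 and 6708 with miR-151a and 3963, 3838 and 3787 with miR-NC, a 1.78-fold rise. The last one (11763226_x_at) rose 1.79-fold, with a log2 fold change of 0.84 (0.74 to 0.95). The interval of the brightest probe set did not reach those of the other two, and it read high on a scale whose top value was 19794 to 20260 on the miR-151a arrays and 19837 to 20108 on the miR-NC arrays. The part of signal height in the smaller fold was not tested.

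CXCL5, a ligand of CXCR2, rose on all 3 of its probe sets. The brightest (11728716_x_at) read 71.8, 79.9 and 95.9 with miR-151a and 43.4, 43.7 and 39.4 with miR-NC, a 1.93-fold rise (log2 fold change 0.95, 0.71 to 1.18, adjusted p = 0.0011 in limma). Here the miR-151a samples spread more than for the GRO genes, with replicate 3 the highest. The other two probe sets, which do not carry the x suffix, had tight replicates. On 11728717_at the values were 43.8, 45.6 and 47.4 with miR-151a and 26.7, 25.7 and 25.5 with miR-NC, a 1.73-fold rise, and 11728715_at rose 1.64-fold. The added constant moved these values: with a pseudocount of 32 the 3 log2 fold changes were 0.62, 0.42 and 0.38, each still past the threshold.

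CXCL6, the closest relative of CXCL5, was not past the threshold. Its probe sets lay below the lower quartile of every array (14.9 to 15.6), with intensities of 7.36 to 7.84 with miR-151a and 6.63 to 7.85 with miR-NC on 11742670_at. The groups overlapped, and the log2 fold changes of 0.07 and 0.07 had intervals from -0.08 to 0.22 and from -0.08 to 0.23, so at this signal a small change was not detectable. The platform annotation ties 11742670_at to a transcript accession that the RefSeq table used here does not list, so its assignment to CXCL6 is less sure than that of 11730801_at.

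CCL20 rose on its single probe set (11724828_at) by about as much as CXCL3, and their order depended on the setting, as given above. It read 517, 567 and 553 with miR-151a and 212, 223 and 222 with miR-NC, with no overlap. This is a 2.48-fold rise (log2 fold change 1.31, 1.19 to 1.44, adjusted p = 8.6e-06 in limma).

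CCL2, the monocyte attractant, was not past the threshold. Its single probe set (11716384_at) read 138, 150.6 and 152 with miR-151a and 125, 130.1 and 140.3 with miR-NC. One miR-NC sample lay above one miR-151a sample, and the log2 fold change of 0.16 had an interval from 0.01 to 0.30 with an adjusted p of 0.16 in limma, from 0.086 to 0.35 over the alternatives. The upper bound of that interval lay below the lower bounds of CXCL1, CXCL2, CXCL3, CXCL5, CXCL8 and CCL20.

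CCL5, also called RANTES, rose on 1 of its 3 probe sets, all of them dim. The brightest (11753810_a_at) read 26.1, 23.2 and 25.5 with miR-151a and 17.5, 20.3 and 19.8 with miR-NC, a 1.28-fold rise (log2 fold change 0.36, 0.20 to 0.53, adjusted p = 0.015 in limma). The groups did not overlap. The call stayed in 4 of the 6 fits that left out 1 sample and was lost in 2: the log2 fold change was 0.33 with an adjusted p of 0.054 without miR-151a UP replicate 1, and 0.34 with an adjusted p of 0.051 without miR-151a UP replicate 3. The adjusted p ran from 0.0085 to 0.054 over all alternatives. With a pseudocount of 32 the log2 fold change was 0.15. On 11732276_x_at the values were 28.3, 19.2 and 24.6 with miR-151a and 18.9, 20.2 and 18.4 with miR-NC, which overlapped (log2 fold change 0.30, adjusted p = 0.16). Without miR-151a UP replicate 2, the low one, its log2 fold change was 0.44 and its adjusted p 0.018, in a range from 0.018 to 0.35. The dimmest probe set (11732275_at), at 8.15 to 8.20 with miR-151a and 7.15 to 8.01 with miR-NC, had a log2 fold change of 0.09 that did not pass.

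CX3CL1, the only membrane-bound chemokine of the 10, gave overlapping groups on both probe sets. The brighter one (11734551_a_at) read 59.6, 45.9 and 56.7 with miR-151a and 46.0, 55.4 and 51.0 with miR-NC. Its log2 fold change of 0.09 had an interval from -0.16 to 0.33, and that of the dimmer probe set was -0.05 (-0.26 to 0.16). The log2 fold change of the dimmer probe set turned to 0.056 without miR-151a UP replicate 2, whose value of 12.3 was the lowest of the 6.

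**Figure D2:**
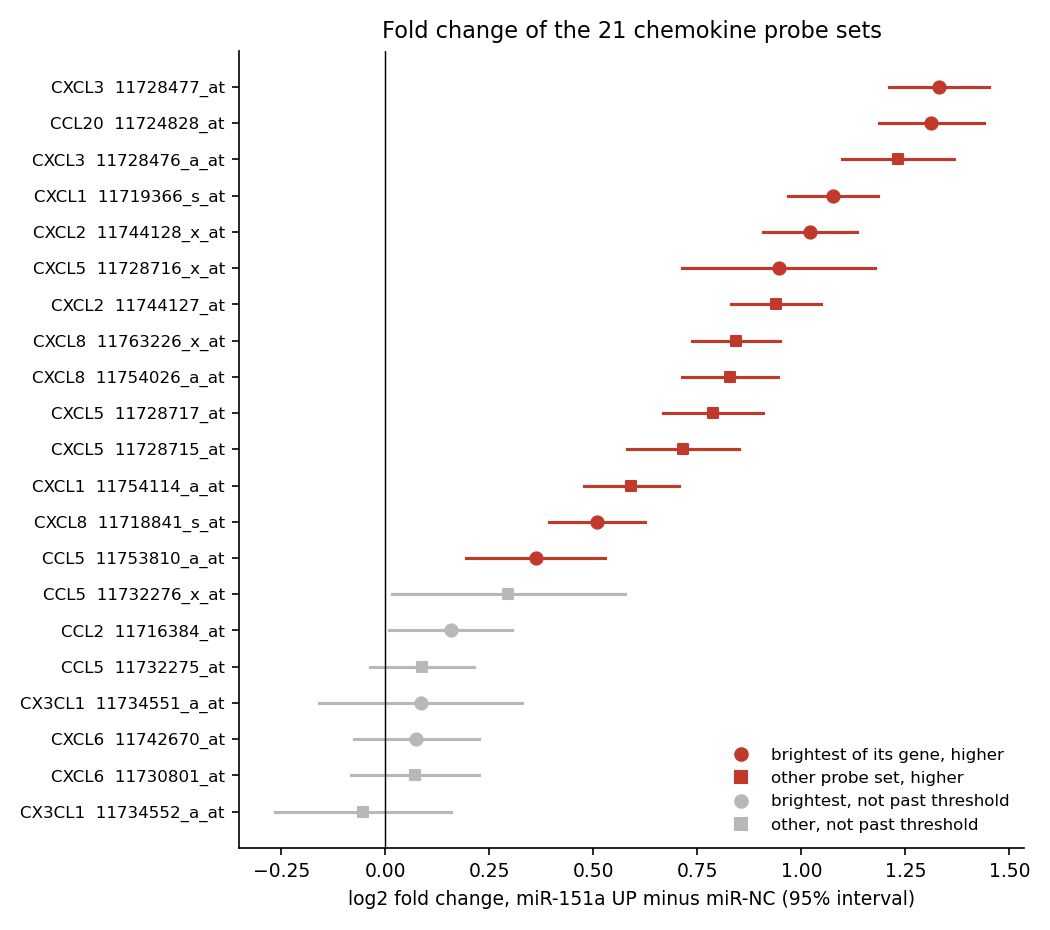
Log2 fold change of miR-151a UP over miR-NC with the 95% interval of the fit for the 21 member probe sets, sorted by size; circles are the brightest probe set of a gene, squares its other probe sets, and red marks those past an adjusted p of 0.05. The 14 probe sets that rose run from 0.36 for CCL5 to 1.33 for CXCL3.

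Set in order by brightest probe set, the log2 fold changes were 1.33 for CXCL3, 1.31 for CCL20, 1.08 for CXCL1, 1.02 for CXCL2, 0.95 for CXCL5, 0.51 for CXCL8, 0.36 for CCL5, 0.16 for CCL2, 0.09 for CX3CL1 and 0.07 for CXCL6. Neighbours in this order had overlapping intervals, except that the interval of CXCL1 ended just below the start of that of CCL20, both at 1.19 after rounding, and that of CXCL8, up to 0.62, lay below that of CXCL5, from 0.71. By its other probe sets CXCL8 would stand beside CXCL5. Read by brightest probe set, 4 of the 10 genes rose at least 2-fold (CXCL1, CXCL2, CXCL3 and CCL20), where 0.43% of all genes did. Of the 21 probe sets 5 did, against 0.321%. On their other probe sets CXCL1 rose 1.51-fold and CXCL2 1.92-fold, so for both the 2-fold rise rests on the brightest probe set. Among 18132 genes ranked by log2 fold change, CXCL3 and CCL20 stood at places 28 and 32, CXCL1 and CXCL2 at 64 and 72, CXCL5 at 88 and CXCL8 at 291. CCL5, CCL2, CX3CL1 and CXCL6 followed at 559, 2202, 4165 and 4618.

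Signal height on the arrays, which does not compare amounts of RNA between genes, gave no single place to the genes that rose. The probe sets of CXCL6, CCL5 and CX3CL1 lay on average below the median of the arrays, as did 2 of the 3 of CXCL5. The CCL2 probe set, which did not pass, stood above 66.0% of all probe sets on average, and the brightest probe set of CXCL5, which rose, above 50.3%. The median within-group SD of log2 values was 0.06 over the member probe sets and 0.08 over all probe sets.

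**Figure D3:**
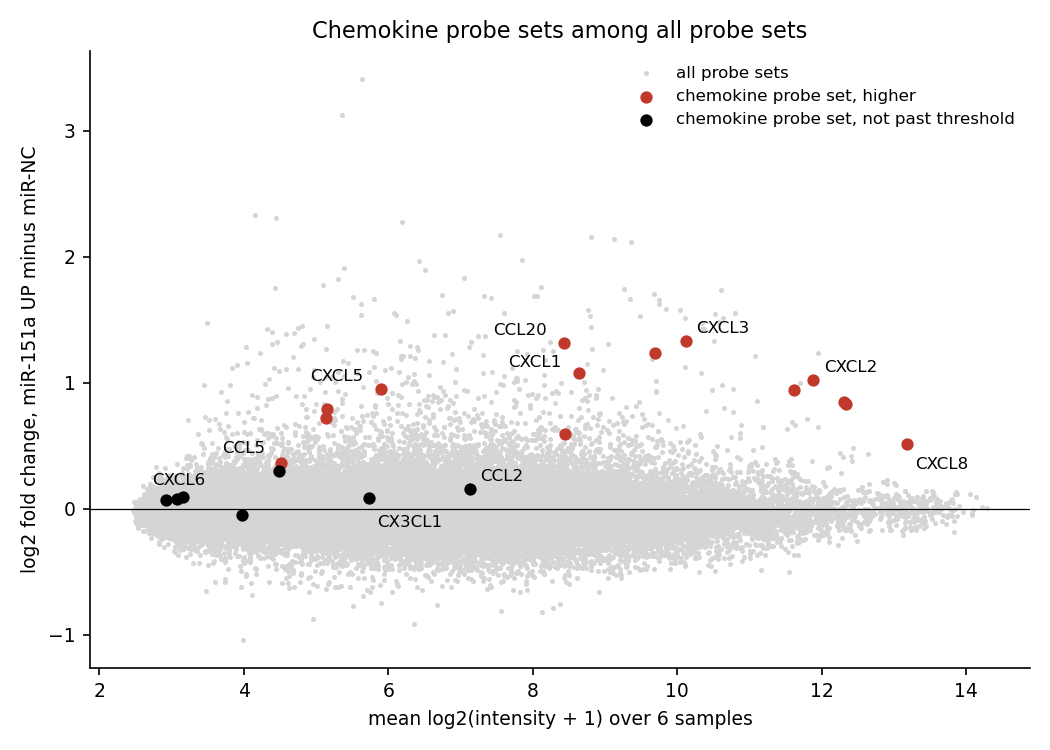
Mean log2(intensity + 1) over the 6 samples against log2 fold change of miR-151a UP over miR-NC, for all 49293 probe sets (grey) and the 21 member probe sets (red where higher, black where not past the threshold), with genes named at their brightest probe set. Members that rose are found at dim, middle and bright levels, and CCL2 lies near 0 at a middle level.

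Position in the genome was not part of the choice of genes. The 6 CXC genes sit together on chromosome 4, where RefSeq places 9 protein-coding genes from CXCL8 to CXCL2. All 9 encode chemokines and were measured, and 5 rose, where 6.75% of all genes did. The stretch was bounded by members, and the 5 that rose are members already counted above, so this is no separate result about position. The other chemokines between them were PF4V1 and PF4, which encode platelet factor 4 proteins, and PPBP, which encodes pro-platelet basic protein. Their log2 fold changes lay between -0.03 and 0.05, and none passed. By these calls the genes that rose did not form an unbroken run: CXCL6 and PF4V1 separate CXCL8 and CXCL1, and PF4 and PPBP separate CXCL1 and CXCL5. CXCL6 and PPBP lay below the lower quartile of the arrays, with means of 7.67 and 6.42 with miR-151a and 7.25 and 6.57 with miR-NC. At that signal a small change was not detectable, so whether the run is broken there is not settled. Of the 5 protein-coding genes on each side of the cluster, 9 had a probe set of 1 gene, with log2 fold changes from -0.04 to 0.22. In limma 0 of them passed, where 14% of all genes did in either direction. The highest was EREG, which encodes the EGFR ligand epiregulin (adjusted p = 0.071).

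**Figure D4:**
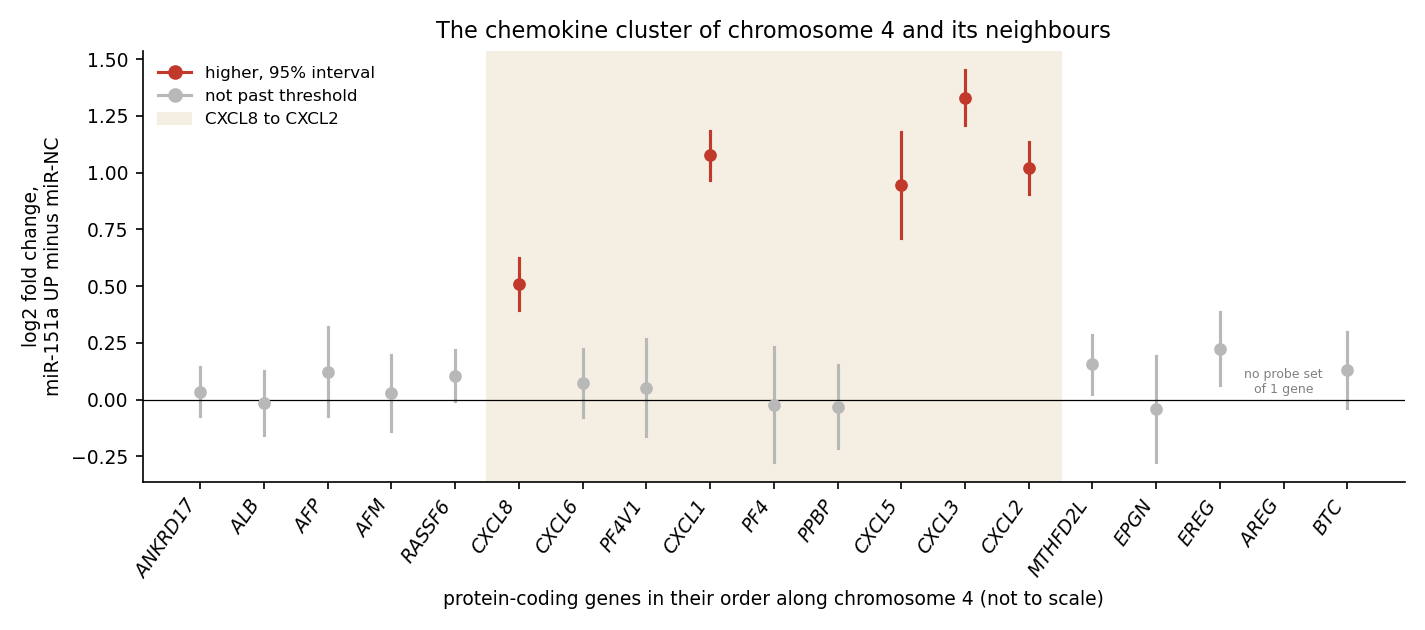
Log2 fold change of miR-151a UP over miR-NC with 95% intervals, by brightest probe set, for protein-coding genes in their RefSeq order along chromosome 4 from left to right; the shaded part runs from CXCL8 to CXCL2. CXCL8, CXCL1, CXCL5, CXCL3 and CXCL2 rose (red), with CXCL6, PF4V1, PF4 and PPBP between them near 0. CXCL6 and PPBP had signals below the lower quartile of the arrays.

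The promoters of 7 of the genes were in the RefSeq table of GRCh38.p14 that was used, and CCL2, CCL5 and CX3CL1 were not. The bases from -150 to -1 before each gene start are shown because the genes that rose most can be read there beside CXCL6, which did not pass. Capitals mark matches on either strand to GGAANNNCC or, within it, GGAATTTCC, forms of the NF-kB element that overlap, and to TGANTCA, the AP-1 element. These forms were chosen with the sequences in view.
CXCL3: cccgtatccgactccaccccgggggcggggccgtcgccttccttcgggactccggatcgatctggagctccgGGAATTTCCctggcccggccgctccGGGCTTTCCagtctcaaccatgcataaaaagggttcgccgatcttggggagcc
CXCL1: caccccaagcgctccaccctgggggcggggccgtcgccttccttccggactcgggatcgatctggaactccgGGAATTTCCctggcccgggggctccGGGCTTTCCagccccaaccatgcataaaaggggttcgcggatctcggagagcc
CXCL2: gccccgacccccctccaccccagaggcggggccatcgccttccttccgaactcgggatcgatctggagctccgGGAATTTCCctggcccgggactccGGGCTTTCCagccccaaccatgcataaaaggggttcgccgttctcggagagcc
CXCL5: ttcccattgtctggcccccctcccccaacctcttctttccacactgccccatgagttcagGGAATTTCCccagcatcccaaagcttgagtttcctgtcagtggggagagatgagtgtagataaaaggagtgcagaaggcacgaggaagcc
CXCL6: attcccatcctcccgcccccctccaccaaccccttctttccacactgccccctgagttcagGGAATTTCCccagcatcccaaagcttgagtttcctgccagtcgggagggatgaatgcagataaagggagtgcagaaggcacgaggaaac
CXCL8: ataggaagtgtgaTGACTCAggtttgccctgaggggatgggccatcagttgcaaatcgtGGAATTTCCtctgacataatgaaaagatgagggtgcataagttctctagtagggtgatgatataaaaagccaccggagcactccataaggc
CCL20: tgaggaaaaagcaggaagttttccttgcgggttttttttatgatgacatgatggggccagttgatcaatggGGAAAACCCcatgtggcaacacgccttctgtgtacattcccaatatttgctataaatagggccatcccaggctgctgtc

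These windows lie at chr4:74038690-74038839 on the minus strand for CXCL3, chr4:73869243-73869392 on the plus strand for CXCL1, chr4:74099196-74099345 on the minus strand for CXCL2 and chr4:73998678-73998827 on the minus strand for CXCL5. Those of CXCL6 (chr4:73836528-73836677), CXCL8 (chr4:73740419-73740568) and CCL20 (chr2:227813692-227813841) are on the plus strand. The 9 letters GGAATTTCC stood in 6 of the 7 promoters and in 0.461% of the 35116 RefSeq promoters of 300 bases. They began at -78 in CXCL1 and CXCL3, -77 in CXCL2, -90 in CXCL5, -89 in CXCL6 and -91 in CXCL8. The open form GGAANNNCC, which 20.1% of all promoters hold, was in all 7, at -79 in CCL20 and a second time, on the other strand at -53, in CXCL1, CXCL2 and CXCL3. TGANTCA was found in CXCL8 alone among the 7, at -137, and in 7.71% of all promoters. The windows of CXCL1, CXCL2 and CXCL3 were 86.7% to 89.3% identical to each other, and those of CXCL5 and CXCL6 were 90% identical, so these promoters are related copies and not separate cases. CXCL5, which rose, and CXCL6, which did not pass, carried the same capital letters. CXCL6 was the only one of the 7 that did not pass, and its signal lay below the lower quartile of every array. The part of these letters in the rises was therefore not tested. A match of letters is no measure of binding.

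Genes known to switch on chemokine transcription were higher in part. Among 28 such genes there were 11 rises and 1 fall, and the median log2 fold change was 0.11. This compares with 6.75% of all genes higher, 7.29% lower and a median of -0.01. The list was chosen with earlier results of these data known, so the comparison is no independent support. The cytokine gene IL1A read 739, 762 and 755 with miR-151a and 249.5, 249.3 and 257 with miR-NC, a 2.98-fold rise. TNF, which encodes tumour necrosis factor, read 89.1, 128 and 112 with miR-151a and 44.6, 48.7 and 48.1 with miR-NC, a 2.27-fold rise (adjusted p = 0.00076 in limma). The transcription factor gene IRF1 rose 2.27-fold on its brightest probe set, and all 4 of its probe sets rose, with log2 fold changes of the other ones from 0.43 to 1.22. The NF-kB subunit genes RELB, NFKB2 and NFKB1 rose 2.02-fold, 1.80-fold and 1.62-fold, and for all of these the groups did not overlap. RELA, the subunit that pairs with p50 in the classical pathway, was at 0.07 and did not pass (adjusted p = 0.46); it is named after its value was seen. The gene that fell was MYD88, the adaptor of IL-1 and Toll-like receptors, at -0.21 (adjusted p = 0.039), also named after its value was seen. Of its 5 probe sets 1 fell, and the highest of the others was at 0.15. The count of 1 became 0 without any of miR-151a UP replicates 1 and 2 and miR-NC replicates 1, 2 and 3.

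Among 14 regulators of chemokine mRNA stability there were 2 rises and 1 fall, and the median log2 fold change was -0.0032. Over all genes 6.75% were higher and 7.29% lower. Counts this small do not set these regulators apart from all genes. ZC3H12C, a relative of the nuclease regnase-1, rose 1.39-fold, with 559, 553 and 572 with miR-151a and 405, 406 and 403 with miR-NC. ZFP36L2, of the tristetraprolin family that marks AU-rich mRNAs for decay, rose 1.31-fold. ELAVL1, which encodes the stabilising protein HuR, had a log2 fold change of -0.28 (adjusted p = 0.010 in limma), and 4 of its 5 probe sets fell.

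Other chemokine genes rose in limma about as often as all genes did. Of 34 listed chemokine genes outside the 10, 30 had a probe set of 1 gene. Of these 2 rose and 0 fell in limma, against 6.75% and 7.29% of all genes, and their median was -0.01. At an unadjusted p under 0.05 the counts were 3 and 0. CCL3, which encodes the macrophage inflammatory protein MIP-1 alpha, read 213, 210.3 and 223 with miR-151a and 159.6, 163 and 166 with miR-NC, a 1.32-fold rise (adjusted p = 0.0021). CXCL11, an interferon-induced ligand of CXCR3, passed at 9.31, 11.9 and 8.56 with miR-151a against 7.02, 6.87 and 7.39 with miR-NC, all below the lower quartile of the arrays. The count of 2 became 1 without any of miR-151a UP replicate 1 and miR-NC replicates 1, 2 and 3. In this list 16 of the 30 genes stood on average below the lower quartile.

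The receptors of the 10 chemokines did not pass. Of 8 measured receptor genes, 0 rose and 0 fell in limma, where 6.75% and 7.29% of all genes did. With so few genes, 0 is near those shares. At an unadjusted p under 0.05 the counts were 0 and 1. CCR1, a receptor of CCL5, had a log2 fold change of -0.23 (adjusted p = 0.057). CCR2, the receptor of CCL2, was at -0.17 on its brightest probe set (adjusted p = 0.30), and its 4 probe sets ranged from -0.17 to 0.18. CXCR2, the main receptor of the CXC ligands above, had mean intensities of 20.1 with miR-151a and 22.1 with miR-NC; it is named after its value was seen.

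Markers of other possible sources of chemokine RNA rose about as often as all genes, read by brightest probe set. Of 17 leukocyte and endothelial markers, 1 rose and 0 fell in limma, against 6.75% and 7.29% of all genes. At an unadjusted p under 0.05 the counts were 2 and 2, and the median was 0.02. The leukocyte genes PTPRC and CD14 read 6.81 to 8.40 and 8.91 to 10.1 with miR-151a and 8.26 to 9.40 and 9.90 to 11.1 with miR-NC, below the lower quartile, as were 8 of the 17 markers on average. CD68, a lysosomal gene of macrophages that many other cells also express, was bright, with means of 1028 with miR-151a and 1004 with miR-NC, and is named after its value was seen. No marker was listed at 0. The summed intensity of the 17 markers was 1404 to 1491 with miR-151a and 1388 to 1457 with miR-NC, so the groups overlapped. CD68 made up most of that sum, so the overlap says little of the dimmer markers. The marker that rose was CD163, a macrophage receptor gene, at 15.4, 19.5 and 14.1 with miR-151a and 9.35, 9.92 and 10.4 with miR-NC. CD163 was dim: it stood on average above 20.4% of all probe sets, so below the lower quartile. ITGAM, which encodes the myeloid integrin CD11b and is named after its values were seen, read 24.8, 18.1 and 25.2 with miR-151a and 17.3, 17.2 and 15.2 with miR-NC on its brightest probe set (log2 fold change 0.42, adjusted p = 0.057 in limma). The groups did not overlap there, and its other 2 probe sets rose, with log2 fold changes of 0.39 and 1.47 (adjusted p = 0.040 and 6.9e-05). CSF1R, a macrophage receptor gene, and PECAM1, an endothelial one, went the other way and are named after their values were seen. On their brightest probe sets the log2 fold changes were -0.22 and -0.29 (adjusted p = 0.071 and 0.11 in limma), with no overlap of the groups. The highest of their probe sets were at 0.01 and -0.09. The part of these markers in the chemokine results was not tested. The higher count became 2 without miR-151a UP replicate 2, and the lower count became 1 without miR-151a UP replicate 1. Of 10 glioma cell markers 0 rose and 2 fell, against 6.75% and 7.29% of all genes. At an unadjusted p under 0.05 the counts were 0 and 3. The genes that fell were NES, a neural progenitor filament, at -0.31 and SPARC, a matrix protein, at -0.30.

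**Figure D5:**
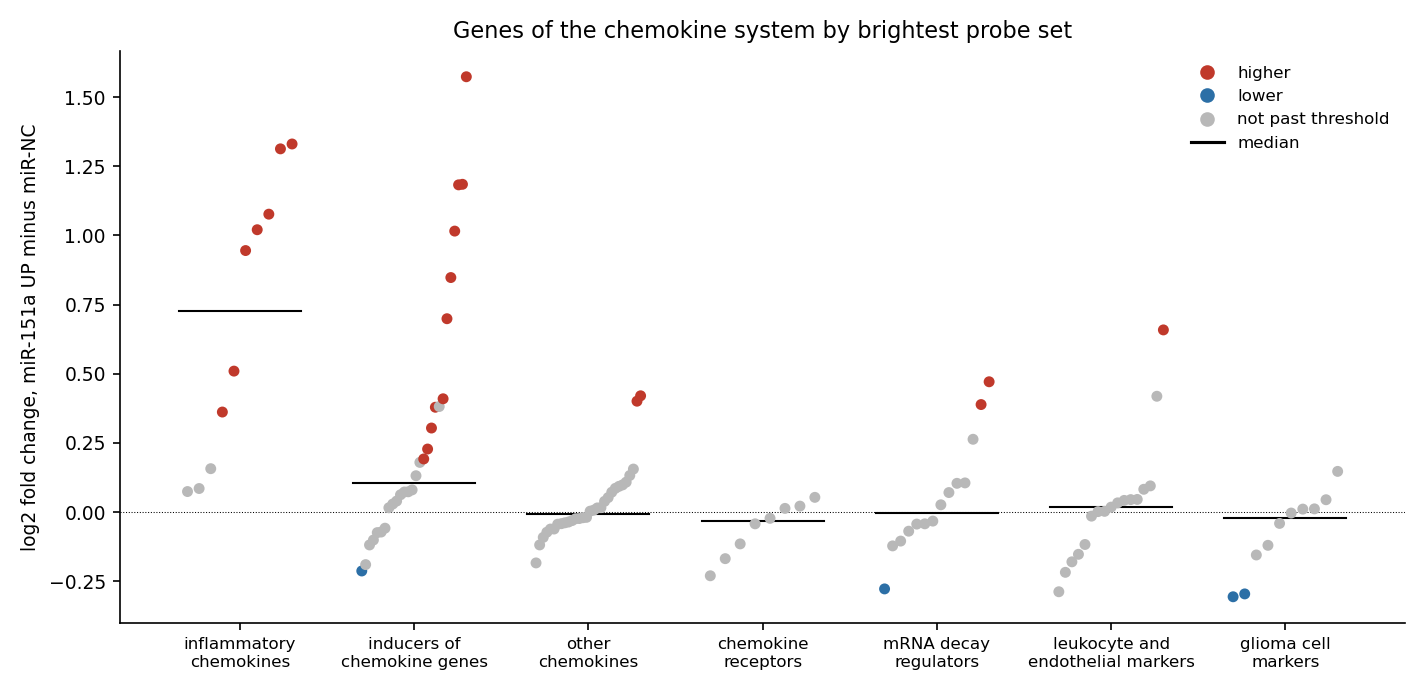
Log2 fold change of miR-151a UP over miR-NC by brightest probe set for the 10 inflammatory chemokine genes and the related lists; each point is a gene, red if higher, blue if lower, grey if not past an adjusted p of 0.05, and lines are medians. The medians are 0.73 for the inflammatory chemokines, 0.11 for the inducers and between -0.03 and 0.02 for the other lists.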

How the data were processed

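RNA was extracted with Trizol and labelled with biotin, per the labels' protocols. The authors deposited linear intensities per probe set, 1 column for each of 6 samples. MAS5 is named, per the submitters' processing notes, with no statement of summarization or scaling. All 6 columns have similar quantiles, so a change common to most transcripts would be hidden. Groups and replicate numbers came from the sample titles. Tests did not use the 102 control probe sets. Gene names came from the platform annotation, updated to RefSeq by Entrez identifier (44988 of 49293 named 1 gene, 1832 several and 2473 none).

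Values were taken as log2(intensity + 1), and fold changes are on that scale, which understates changes of dim genes. The groups were compared by lmFit and eBayes in limma 3.58.1 under R 4.3.3 (two-sided, no covariate), adjusted by Benjamini-Hochberg over all 49293 probe sets. A gene was read by its brightest probe set over all samples. The fit was tested on simulated data. Since exact permutation of 3 samples against 3 gives at best p = 0.1, the p-values printed are those of the model. Intervals are 95% intervals of the fit, and the number of arrays limits their precision.

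The members, the related gene lists and the tests were chosen with earlier results of these data known. Named were all members, in each list up to 6 genes past the threshold by smallest p or up to 2 where none passed, and marker genes that check the label. The alternatives tried were a pseudocount of 32, quantile normalization, median centring, a filter at the 0.25 quantile of mean level, array weights, a robust fit with a variance trend, the replicate number as a block, a fit over genes, the mean over probe sets, and leaving out each sample. Figures were drawn with matplotlib 3.10.9.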

Additional observations from a re-analysis of the deposited data

How the results depend on the processing

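The counts of 14 member probe sets and 7 member genes that rose stayed within 1.5 times, and the counts that fell stayed at 0, under every alternative run; without 1 sample they ranged from 13 to 15 and from 6 to 7. Of 289 member fold changes recomputed, 284 kept their direction and call, and the others were those of CCL5 and CX3CL1 given with these genes and the CCL5 call under the replicate block (adjusted p = 0.052). Same-numbered samples did not deviate together (correlations -0.08, -0.12 and 0.07; 1 of 3 in each group correlated best with its own number). With the replicate block 13 member probe sets and 6 member genes rose; over all probe sets 2326 rose and 2052 fell, 1 other chemokine rose and 0 inducers fell. Over all probe sets the lower count was 5396 with a pseudocount of 32 and 5856 with the variance trend; without 1 sample it ranged from 1893 to 2426, and the higher count from 2171 to 2689. With a pseudocount of 32 and after the filter on dim probe sets, the counts were 1 for other chemokines that rose, 1 for receptors that fell and 1 for leukocyte and endothelial markers that fell; the pseudocount also gave 2 decay regulators that fell. Median centring gave 1 receptor that fell. The variance trend gave 2 markers that rose and 2 that fell, 2 inducers that fell and 3 decay regulators that fell. Array weights gave 2 markers that rose. The mean over probe sets gave 2 markers that rose, 0 inducers, 3 decay regulators and 1 receptor that fell. Without 1 sample, other chemokines that rose ranged from 1 to 2, inducers that fell from 0 to 1, markers that rose from 1 to 2 and markers that fell from 0 to 1. The log2 fold change of the dimmer CX3CL1 probe set ranged from -0.13 to 0.056 without 1 sample. The filter left out both CXCL6 probe sets and the dimmest ones of CCL5 and CX3CL1, which have no value there. The cause of these differences was not tested. Dim probe sets (CXCL6, CCL5, most receptors) limit what could be seen.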

Other observations

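Probe sets that name a member together with another gene were not counted as members. The one annotated to CXCL1 and CXCL2 (11763250_x_at) read 320.1, 339 and 352 with miR-151a and 193, 225 and 203 with miR-NC, a 1.63-fold rise (log2 fold change 0.70, adjusted p = 0.00077 in limma). The one annotated to CXCL5 and GLYR1, a nuclear chromatin protein gene (11717025_s_at), read 172, 172 and 189 with miR-151a and 189.8, 175 and 175 with miR-NC. Its groups overlapped, with a log2 fold change of -0.02 (adjusted p = 0.87), unlike the probe sets that name CXCL5 alone.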
